A study of Trichoderma reesei with 4 samples.

Results

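The step from 3 h to 6 h of asexual sporulation was examined in the filamentous ascomycete Trichoderma reesei, as the log2 expression at 6 h minus that at 3 h. All 9126 features of the gene array entered, out of 9126 in the series. The groups compared were sporulating cultures at 6 h and at 3 h, with cultures at 9 h and a mycelium control at 0 h set beside them. Every culture was of strain QM9414, an early cellulase-producing mutant labelled as a low cellulase producer, grown on malt extract agar overlaid with cellophane. Each time was represented by 2 biological replicas, deposited as their mean and SD. Unsporulated mycelium of later times was not analysed here, so effects of sporulation and of time in culture cannot be told apart.

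Conidiation is the formation of asexual spores on specialised branches of the mycelium, and it brings wall coating, pigmentation and storage of reserves such as mannitol. Trichoderma reesei is known for secreting cellulases and hemicellulases, which cut plant cell walls into sugars. Those genes are switched on together by the activator XYR1 and repressed by CRE1 on readily used sugars. The enzymes act in series: endoglucanases cut cellulose chains, cellobiohydrolases release cellobiose from chain ends, oxidative monooxygenases open the crystalline surface, and beta-glucosidases split cellobiose into glucose.

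Levels below are means ± SD (n = 2) of log2 expression, and they are compared only within a feature. A feature was called when limma's moderated test gave a Benjamini-Hochberg adjusted p under 0.05 and the change was at least 2-fold. All adjusted p-values below come from that test. With 2 replicas per time, p-values measure only the spread between those cultures. The number of arrays limits the precision. The standard error of the 6 h minus 3 h change had a median of 0.12 on the log2 scale. The labelled state was checked with the marker enzyme gene and the hydrophobin genes, which encode small proteins that coat fungal surfaces. The gene lxr1, which encodes the D-mannitol dehydrogenase used as the marker of conidiation, stood at 11.96 ± 0.2, 13.33 ± 0.12, 13.94 ± 0.14 and 13.89 ± 0.12 at 0, 3, 6 and 9 h. Its change of 0.61 from 3 h to 6 h stayed under 2-fold (adjusted p = 0.0176). Hydrophobin genes hfb3, hfb2 and hfb1 changed by -0.69, -0.44 and 0.25 in this step, and none passed the test (adjusted p = 0.066, 0.164 and 0.428). For hfb3 the adjusted p was 0.0432 with a trended prior and 0.0241 in a fit of 3 h and 6 h alone, with the change still under 2-fold. At 6 h, hfb3 and hfb2 were called above 0 h, by 3.82 and 2.66, and lxr1 stood 1.98 above it. The remaining hydrophobin gene, hfb1, was at 7.97 ± 0.17 at 6 h, against 8.22 ± 0.15 at 0 h.

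Between 3 h and 6 h, 239 features fell and 217 rose. These were 2.62% and 2.38% of the features tested, together 456 features. The median change over all features was 0.026. The falls were the deeper ones: at a threshold of 4-fold, 61 features fell (0.668%) and 23 rose (0.252%). The lowest and highest changes were -7.23 and 4.17 on the log2 scale. Many calls lay close to the fold threshold. There were 156 called features with a change of 1 to 1.2 in size, and 260 with a change of 0.8 to 1 passed the adjusted p but not the fold. A further 28 features reached 2-fold without passing the adjusted p.

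The called features were then divided by what they had done at the onset, from 0 h to 3 h. At the onset 618 features had risen (6.77%) and 438 had fallen (4.80%). Of the risen features, 134 fell again by 6 h and 28 rose further. Of the fallen features, 57 rose again and 19 fell further. The remaining 218 calls, 132 rises and 86 falls, came from features not called at the onset. Reversals thus made up 191 of the 456 calls, continuations 47 and first moves 218. Expressed as shares, 21.7% of onset rises fell between 3 h and 6 h and 4.53% rose. Of onset falls, 13.0% rose and 4.34% fell. Among features not called at the onset, 1.64% rose and 1.07% fell. The onset and the step both contain the 3 h arrays, with opposite sign, so an error in a 3 h mean moves a feature towards the reversed classes, and these counts are a description. The balance depended on the fold threshold: by adjusted p alone in both intervals, 499 onset rises fell and 627 onset falls rose.

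**Figure D1:**
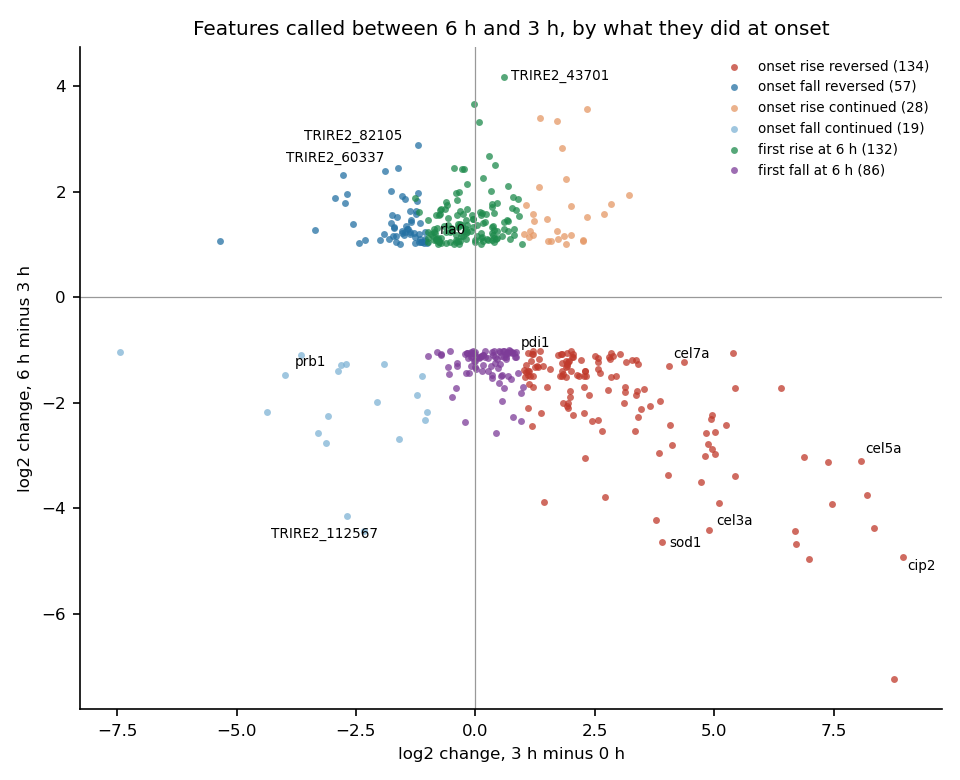
Each point is a feature called between 6 h and 3 h, with its log2 change from 0 h to 3 h on the horizontal axis and from 3 h to 6 h on the vertical axis, coloured by class (number of features in brackets). The deepest falls sit at the lower right, among onset rises, where cip2 lies at 8.95 and -4.92, and the fold threshold leaves the band between -1 and 1 on the vertical axis empty.

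The reversed onset rises contained most of the named genes. Of the 235 features with a symbol in the gene table, 19 were called in this step, 18 lower and 1 higher, and 16 of the 18 were reversed onset rises. They included 8 of 9 cellulase and accessory cellulose genes, 3 of 5 beta-glucosidase genes and 2 of 3 hemicellulase genes, each list against 2.62% of all features called lower. Medians over these lists were -3.13, -1.5 and -2.42. They were assembled with earlier results of these data known, and they hold only genes with a symbol. Genes of these families without a symbol in the gene table are not counted.

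Among cellulase and accessory genes, the deepest fall was that of cip2, a glucuronoyl esterase gene, at 5.04 ± 0.019, 13.99 ± 0.08, 9.07 ± 0.14 and 9.93 ± 0.067 at 0, 3, 6 and 9 h. It was 30.3-fold lower at 6 h than at 3 h (log2 change -4.92, SE 0.11, adjusted p = 2.84e-07), and the replicas of these times did not overlap. The 3 MAT1-1 features, which belong to the mating type opposite to the strain's own, spanned 4 to 5.53, and the 0 h level of cip2 fell inside that span. The share of its rise that was lost, 55.0%, is therefore not exact. The cellulose-binding protein gene cip1 fell by 3.74 and lost 45.6% of its onset rise.

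The endoglucanase genes cel7b, cel5a and cel12a had steps of -3.9, -3.1 and -3.13, after onset rises of 5.1, 8.07 and 7.39. Expression of cel7b was 7.96 ± 0.017, 13.06 ± 0.091, 9.16 ± 0.021 and 10.2 ± 0.26 at 0, 3, 6 and 9 h, so that 76.4% of its rise was lost by 6 h. The gene cel5a stood at 6.85 ± 0.57, 14.92 ± 0.17, 11.82 ± 0.12 and 13.03 ± 0.09 at these times, a loss of 38.4%. For cel12a, at 7.12 ± 0.38, 14.51 ± 0.25, 11.39 ± 0.14 and 12.39 ± 0.012, the loss was 42.3%. All 3 were called above mycelium at 6 h (6.68% of all features were), by 1.2 for cel7b, 4.97 for cel5a and 4.26 for cel12a, and each was called higher again between 6 h and 9 h (1.12% of all features were), at 1.04, 1.21 and 1.0.

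The cellobiohydrolase gene cel7a and the monooxygenase gene cel61a gave up the smallest shares among the 8 called members of the list, 32.2% and 31.5%. Levels of cel7a were 11.46 ± 0.17, 15.5 ± 0.072, 14.2 ± 0.13 and 15.07 ± 0.1 at 0, 3, 6 and 9 h. Its change in the step was -1.3 (SE 0.12, adjusted p = 3.79e-04). The other monooxygenase gene, cel61b, fell by 3.91 and lost 52.4% of its rise, as against a fall of 1.71 for cel61a. One member, cel5b, had not been called at the onset and was not called here (change 0.31, adjusted p = 0.105).

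Of the 3 called beta-glucosidase genes, none was called against mycelium at 6 h. The gene cel3a, which encodes the main extracellular beta-glucosidase, stood at 7.77 ± 0.45, 12.67 ± 0.055, 8.26 ± 0.17 and 9.03 ± 0.044 at 0, 3, 6 and 9 h. It lost 90.0% of its rise, and at 6 h it did not differ from 0 h by the test (0.49, adjusted p = 0.0796). For cel3c the loss was 90.1%, with levels of 10.52 ± 0.14, 13.1 ± 0.038, 10.77 ± 0.067 and 11.46 ± 0.13. The fall of cel1b by 1.5 took it to 12.88 ± 0.21, against 13.17 ± 0.098 at 0 h (adjusted p = 0.0837). The intracellular beta-glucosidase gene cel1a ended just short of 2-fold at -0.99 (adjusted p = 0.025), and cel3b changed by -0.1 (adjusted p = 0.61). For the list as a whole, 1 of 5 members was called above 0 h at 6 h, cel1a at 1.32, as against 8 of 9 cellulase genes, and the difference between the lists was not tested.

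For the hemicellulase genes, the acetyl xylan esterase gene axe1 was at 6.64 ± 0.035, 14.98 ± 0.047, 10.61 ± 0.23 and 10.97 ± 0.13 at 0, 3, 6 and 9 h. It fell 20.7-fold and kept a level 3.97 log2 units above mycelium. The mannanase gene man5a fell by 2.42 and was then called higher by 1.44 from 6 h to 9 h. No other listed cellulase, beta-glucosidase or hemicellulase gene had a larger later rise. The other acetyl xylan esterase gene, axe2, passed the adjusted p without reaching 2-fold (-0.48, adjusted p = 0.0134).

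**Figure D2:**
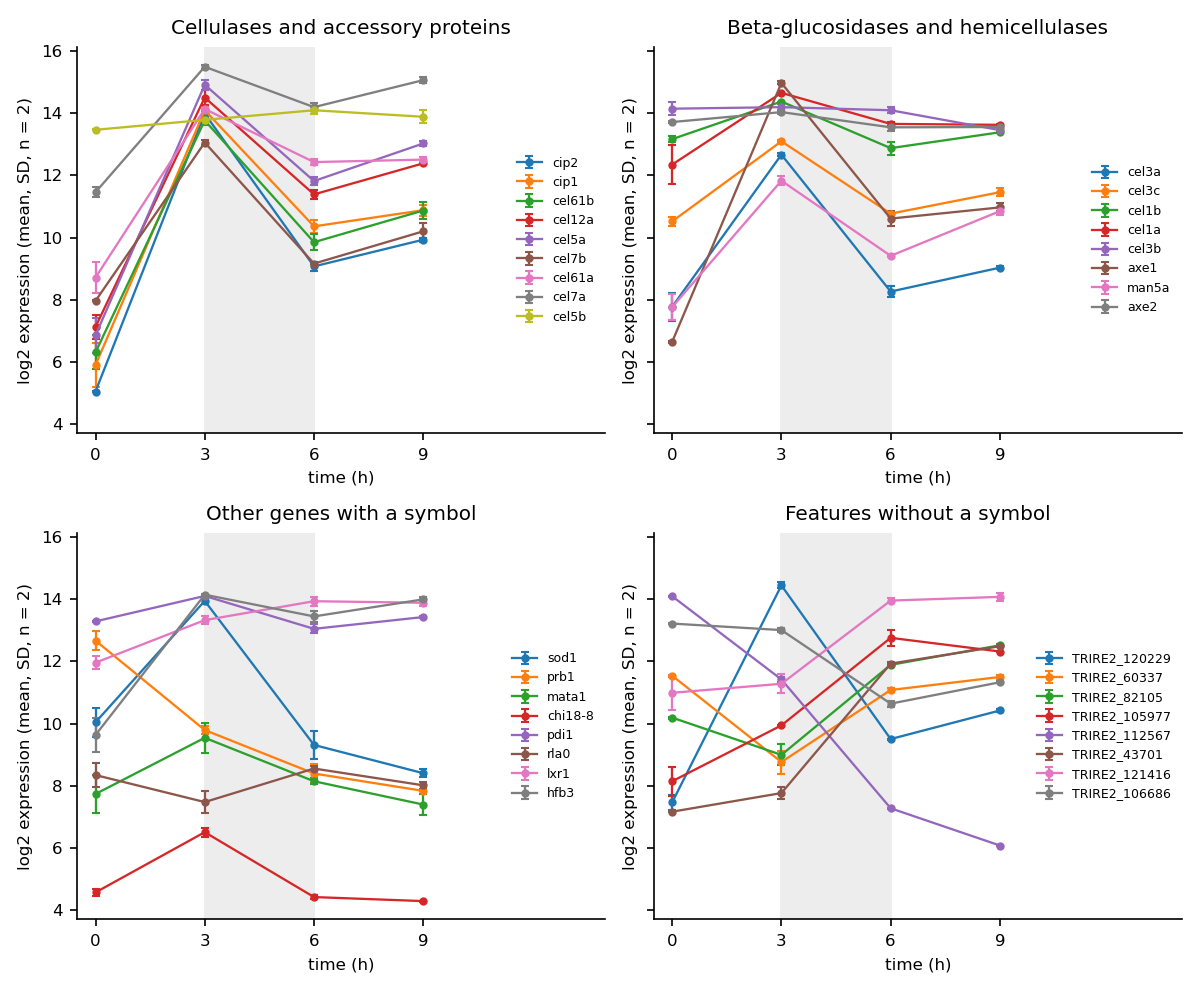
Mean log2 expression (vertical axis, bars are SD, n = 2) against time in hours for named genes and for features without a symbol, with the 3 h to 6 h interval shaded. The plotted cellulase genes other than cel5b peak at 3 h and drop in the shaded interval, cel7b to 9.16 and cel7a to 14.2. The gene lxr1 goes to 13.94 at 6 h.

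The listed regulators of these genes stayed within 2-fold. Of 7 regulator genes 0 were called by limma's test, and 2 passed the adjusted p alone, both lower, where 9.51% of all features did so. The same 2 passed at an unadjusted p under 0.05. The gene of the activator, xyr1, was at 12.45 ± 0.0042, 13.55 ± 0.016, 13.05 ± 0.11 and 13.23 ± 0.061 at 0, 3, 6 and 9 h. Its step of -0.5 (adjusted p = 0.00958) took back 45.4% of its onset rise. The repressor genes cre1 and ace1 changed by -0.06 and 0.05 (adjusted p = 0.666 and 0.798).

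Other reversed onset rises with a symbol came from outside plant wall degradation. The superoxide dismutase gene sod1, whose product removes superoxide, stood at 10.04 ± 0.47, 13.95 ± 0.084, 9.31 ± 0.46 and 8.4 ± 0.12 at 0, 3, 6 and 9 h. It fell 24.9-fold in the step (adjusted p = 2.51e-05), which was 119.0% of its onset rise, and at 6 h it did not differ from 0 h by the test (-0.73, adjusted p = 0.0544). The catalase gene cat1 stayed between 4.16 and 4.26 at the 4 times, within the range of the MAT1-1 features. The chitinase gene chi18-8 fell by 2.09, to 4.41 ± 0.068 at 6 h, against 6.5 ± 0.15 at 3 h, and its 0 h and 6 h levels lay in that range as well. The mating-type gene mata1 fell by 1.4 (SE 0.32, adjusted p = 0.0181). Its replicas were wide apart at 3 h, with an SD of 0.49.

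Over all 134 reversed rises, the median onset rise was 2.41 and the median change in the step -1.52. The share of the onset rise that was lost had a median of 66.4%, with quartiles of 52.9% and 94.2%. At least 50% was lost by 109 features, and 16 lost more than 120%. The class rule asks for a fall of at least 2-fold, so an onset rise under 4-fold loses over 50% by that rule. Both changes also contain the 3 h mean. At 6 h, 73 of the 134 were not called against 0 h, 58 were still above it and 3 were below. Over all features, 6.68% were called above and 4.27% below. Within the span of the MAT1-1 features lay 14 of the 134 at 0 h and 10 at 6 h. The fall was followed at 9 h by a further called change in few of them: 15 rose between 6 h and 9 h and 4 fell, where 1.12% and 0.811% of all features did so. At 9 h, 106 of the 134 were still called below their 3 h level (3.50% of all features were), a comparison that shares the 3 h arrays with the class rule.

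Among the features without a symbol in this class, the rule for named genes gave TRIRE2_120229 and TRIRE2_69276. The first was at 7.46 ± 0.24, 14.45 ± 0.095, 9.5 ± 0.015 and 10.42 ± 0.05 at 0, 3, 6 and 9 h, and it fell by 4.95. TRIRE2_69276 fell by 4.42, to 9.49 ± 0.007 at 6 h, against 13.91 ± 0.2 at 3 h. The deepest fall of the array, TRIRE2_54219, lies outside that rule because of its low mean level and was chosen after its values were seen. It stood at 5.73 ± 0.02, 14.5 ± 0.029, 7.27 ± 0.19 and 6.79 ± 0.24 at 0, 3, 6 and 9 h and was 150-fold lower at 6 h than at 3 h (adjusted p = 2.84e-07).

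The 57 reversed onset falls stood near their 0 h levels at 6 h, with a median difference of -0.12. Their median onset fall was -1.48 and their median rise in the step 1.25. The share regained had a median of 90.7%, with quartiles of 73.3% and 105.0%. A high share is partly built in: the class rule asks for a step of at least 2-fold. An onset fall under 4-fold thus regains over 50% by that rule, and both changes contain the 3 h mean. At 6 h, 50 of 57 were not called against 0 h, 6 were still below and 1 was above. The share not called was close to that of all features, 8126 of 9126. The spread at 3 h was larger in this class, with a median SD of 0.207, against 0.099 over all features. At 6 h its median SD was 0.082. The part of this spread in the count was not tested.

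None of the 57 reversed falls had a symbol. TRIRE2_60337 had levels of 11.54 ± 0.028, 8.76 ± 0.37, 11.08 ± 0.071 and 11.5 ± 0.063 at 0, 3, 6 and 9 h. Its rise in the step was 4.97-fold (adjusted p = 7.53e-05), and 83.4% of its onset fall was regained. TRIRE2_82105 went past its starting level, with 10.19 ± 0.036, 8.99 ± 0.34, 11.89 ± 0.042 and 12.52 ± 0.046 at these times, a 7.42-fold rise in the step.

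Ribosomal protein genes encode the protein part of the ribosome. Of 42 members, 25 passed the adjusted p alone and all 25 were higher, where 12.2% of all features were higher by that rule, and 17 did not pass. With the fold threshold 1 of 42 was called, against 2.38% of all features. All 42 changes were positive, from 0.05 to 1.08, with a median of 0.45. At the onset 10 of the 42 had been called lower (4.80% of all features were). By adjusted p alone 41 were lower then, where 2177 of 9126 features were. Against 0 h at 6 h, 0 of the 42 were called by limma's test. By adjusted p alone 16 were still lower, where 1770 of 9126 features were, and at an unadjusted p under 0.05 22 were lower. All 42 changes were also positive with the contrasts centred on their median and after quantile normalization, where 21 and 20 passed the adjusted p. The gene rla0, which encodes the stalk protein P0, stood at 8.34 ± 0.38, 7.47 ± 0.36, 8.55 ± 0.066 and 8.01 ± 0.12 at 0, 3, 6 and 9 h (change 1.08, adjusted p = 0.0103). Next came rpl30 at 0.76 and rps14 at 0.73. For rpl30 the levels were 13.84 ± 0.33, 12.78 ± 0.33, 13.54 ± 0.091 and 13.25 ± 0.057 at the same times (adjusted p = 0.027), and for rps14 they were 13.14 ± 0.1, 12.11 ± 0.31, 12.83 ± 0.12 and 12.58 ± 0.035 (adjusted p = 0.013). Both stood lowest at 3 h, and rps14 regained 70.3% of its onset fall. The onset and the step share the 3 h arrays with opposite sign, so an error in those arrays would move these genes down and then up. The 3 h SDs of rla0, rpl30 and rps14 were above the median of 0.099 over all features. The part of such an error was not tested.

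**Figure D3:**
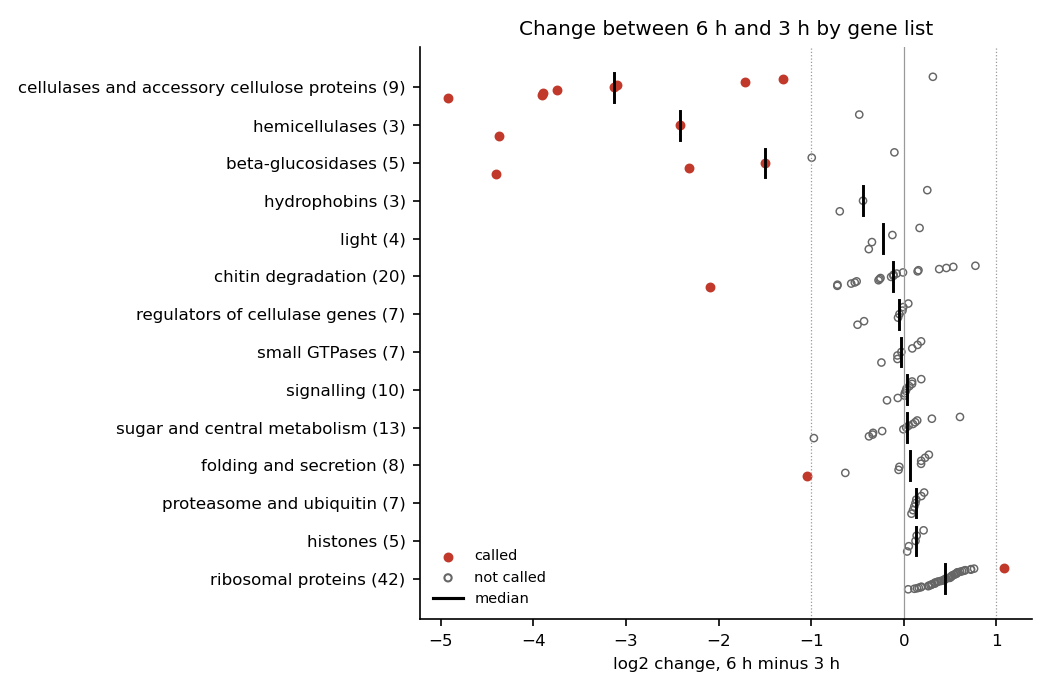
Log2 change from 3 h to 6 h (horizontal axis) for the members of each gene list (number of members in brackets), with called members filled, others open, the list median as a bar and the 2-fold threshold dotted. Called members lie to the left in the cellulase, hemicellulase and beta-glucosidase lists, while all 42 ribosomal protein genes lie right of 0 with a median of 0.45.

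Genes for protein folding and secretion showed 1 call among 8, the protein disulfide isomerase gene pdi1, whose product forms disulfide bonds in secreted proteins. It stood at 13.29 ± 0.011, 14.11 ± 0.031, 13.05 ± 0.15 and 13.43 ± 0.032 at 0, 3, 6 and 9 h, a change of -1.05 in the step (SE 0.1, adjusted p = 4.25e-04). Its onset change of 0.82 had passed the adjusted p but not the fold, so by the rule it counts as a first fall. The chaperone gene bip1 followed with -0.63 (adjusted p = 0.00664), after 0.36 at the onset. The genes ire1, of the sensor of unfolded proteins, and snc1 and sar1, of vesicle transport, changed by 0.19, 0.23 and 0.27 and did not pass the test (adjusted p = 0.263, 0.142 and 0.224). The list median was 0.07.

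Chitin degradation, the breakdown of the fungal wall polymer, gave 1 call among 20 genes, that of chi18-8, where 2.62% of all features were called lower. By adjusted p alone 4 of 20 were lower and 2 higher, where 9.51% and 12.2% of all features were. Beside chi18-8 the lower ones included chi18-6 at -0.72 and nag1, an N-acetylglucosaminidase gene, at -0.72. The 2 higher ones were chi18-7 at 0.53 and chi18-3 at 0.46. Of 13 genes of sugar and central metabolism 0 were called by limma's test. By adjusted p alone 2 of 13 were lower and 1 higher, close to the 9.51% and 12.2% of all features, and at an unadjusted p under 0.05 these were 3 and 2. The D-xylose reductase gene xyl1 came closest at -0.97 (adjusted p = 5.77e-04). It went to 13.92 ± 0.032 at 6 h, against 14.89 ± 0.068 at 3 h and 13.65 ± 0.14 at 0 h. The light-response gene env1 changed by -0.38 (adjusted p = 0.0359) and was the 1 of 4 light genes to pass the adjusted p alone, with 2 lower at an unadjusted p under 0.05 and 0 called by limma's test.

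The proteasome and ubiquitin, histone, small GTPase, signalling and translation factor lists, with 7, 5, 7, 10 and 2 members, had 0 calls by limma's test and 0 members past the adjusted p alone or an unadjusted p under 0.05. Their medians were 0.13, 0.13, -0.03, 0.03 and 0.08. All 7 proteasome and ubiquitin genes and all 5 histone genes had positive changes of at most 0.22, none past an unadjusted p under 0.05.

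Continuation of the onset change was the least frequent course, with 28 rises and 19 falls. All 28 continued rises were above 0 h at 6 h and at 9 h, and all 19 continued falls were below it at both times, where 6.68% and 4.27% of all features were called higher and lower at 6 h and 7.48% and 5.40% at 9 h. The comparisons with 0 h share their arrays with the class rule, and at 6 h a large change follows from it. The median level against 0 h was 3.1 at 6 h and 3.65 at 9 h for the rises, and -4.29 and -4.59 for the falls. Between 6 h and 9 h, 22 of the 28 and 16 of the 19 made no further called change, where 8950 of all 9126 features made none. Of the continued rises, 4 were called higher and 2 lower in that interval, and 3 of the continued falls were called lower. Over all features, 1.12% were called higher and 0.811% lower. Of the continued rises, 10 lay within the range of the MAT1-1 features at 0 h, so the size of their onset rise is not exact. Median SDs at 3 h were 0.203 for the continued rises and 0.111 for the continued falls.

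The serine protease gene prb1 was the 1 continuing feature with a symbol. Its levels were 12.67 ± 0.3, 9.79 ± 0.14, 8.39 ± 0.32 and 7.83 ± 0.019 at 0, 3, 6 and 9 h, with a step of -1.4 (adjusted p = 0.00176). Without a symbol, TRIRE2_112567 had an onset change of -2.68 and a step of -4.15, to 7.27 ± 0.01 at 6 h, against 11.42 ± 0.08 at 3 h. TRIRE2_123979 had a step of -2.68, to 9.91 ± 0.081, against 12.59 ± 0.32 at 3 h. TRIRE2_105977 rose by 1.8 at the onset and 2.82 in the step, with levels of 8.14 ± 0.46, 9.94 ± 0.0073, 12.76 ± 0.26 and 12.32 ± 0.027 at the 4 times. TRIRE2_109344 rose by 2.23 in the step, to 11.52 ± 0.12, against 9.28 ± 0.5 at 3 h. At 6 h the rises stood 4.63 and 4.12 above mycelium for TRIRE2_105977 and TRIRE2_109344, and the falls at -6.83 and -4.29 for TRIRE2_112567 and TRIRE2_123979.

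**Figure D4:**
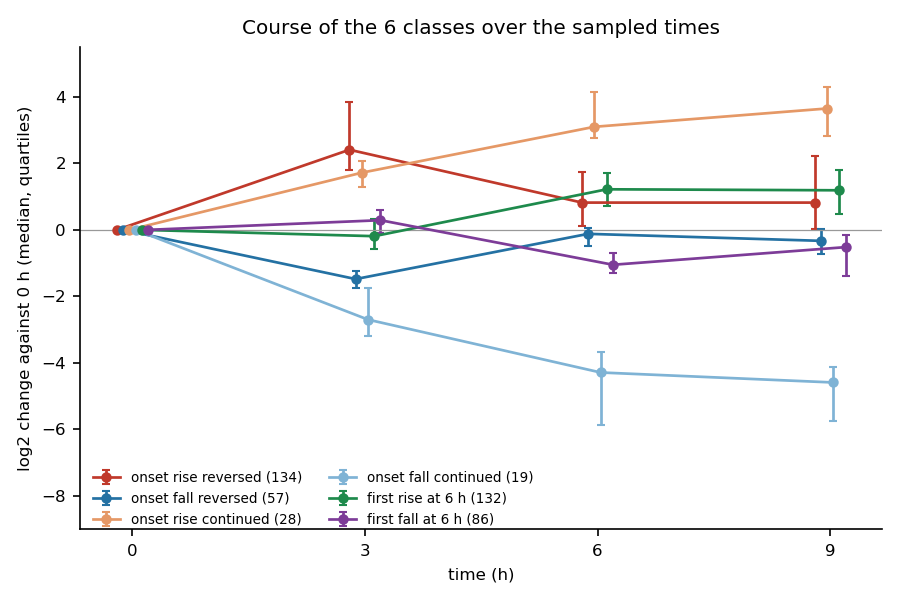
Median log2 change against 0 h (vertical axis, bars from the lower to the upper quartile) at 0, 3, 6 and 9 h for the 6 classes, with points shifted sideways to avoid overlap. Reversed falls stand at a median of -0.12 at 6 h and reversed rises at 0.82, while continued rises and falls stand at 3.1 and -4.29.

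First moves comprised 132 rises and 86 falls. That they outnumbered the reversals depended on the setting. With 4-fold asked of both intervals there were 35 first moves and 42 reversals, and by adjusted p alone 607 and 1126. A first move at 4-fold may thus have been called at the onset at 2-fold. In the classes as defined at 2-fold, steps of at least 4-fold were made by 12 first rises and 4 first falls. The same held for 48 reversed rises and 5 reversed falls. Not all of the first moves had been still before: 70 of the 132 and 48 of the 86 did not pass the adjusted p at the onset. Of the first rises, 41 had an onset change under 2-fold in the opposite direction that passed the adjusted p, and 21 had one in the same direction. Of the first falls, 32 and 6 had such changes. At 6 h, 84 of the 132 first rises were above 0 h (6.68% of all features were) and 48 were not called. At 6 h, 45 of the 86 first falls were below 0 h (4.27% of all features were) and 41 were not called. The 6 h arrays also enter the class rule, so higher shares than over all features are partly built in. The 3 h replicas were spread more widely here too, with median SDs of 0.206 for first rises and 0.263 for first falls, against 0.099 over all features. The part of this spread in the counts was not tested. Within the span of the MAT1-1 features lay 15 first rises at 3 h and 7 first falls at 6 h.

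Against 0 h at 9 h, 72 of the 132 first rises were called above, 59 were not called and 1 was below, where 7.48% and 5.40% of all features were called above and below. Against 3 h, 89 of the 132 were above at 9 h (3.02% of all features were) and 43 were not called. Of the falls, 41 of 86 were below their 3 h level at 9 h (3.50% of all features were). These comparisons with 3 h share their arrays with the class rule. Between 6 h and 9 h, 11 of the falls were called higher again (1.12% of all features were). TRIRE2_43701 had the largest rise of the step, 18.0-fold (adjusted p = 5.95e-07), with levels of 7.16 ± 0.018, 7.76 ± 0.18, 11.93 ± 0.05 and 12.49 ± 0.039 at 0, 3, 6 and 9 h. TRIRE2_121416 rose 6.42-fold, with levels of 10.99 ± 0.56, 11.28 ± 0.31, 13.96 ± 0.091 and 14.08 ± 0.12. Among first falls, TRIRE2_106686 stood at 13.22 ± 0.01, 13.01 ± 0.055, 10.64 ± 0.099 and 11.33 ± 0.03, and TRIRE2_70500 at 11.4 ± 0.015, 12.35 ± 0.082, 10.02 ± 0.062 and 9.15 ± 0.2. The onset change of TRIRE2_70500, 0.95, lay just under the fold threshold, so it counts as a first fall only by the rule. The replicas of 6 h and 3 h did not overlap for any of the 456 called features, and this held for 61.4% of all features. The overlap was read from the same means and SDs as the calls, so it is no separate support for them.

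**Figure D5:**
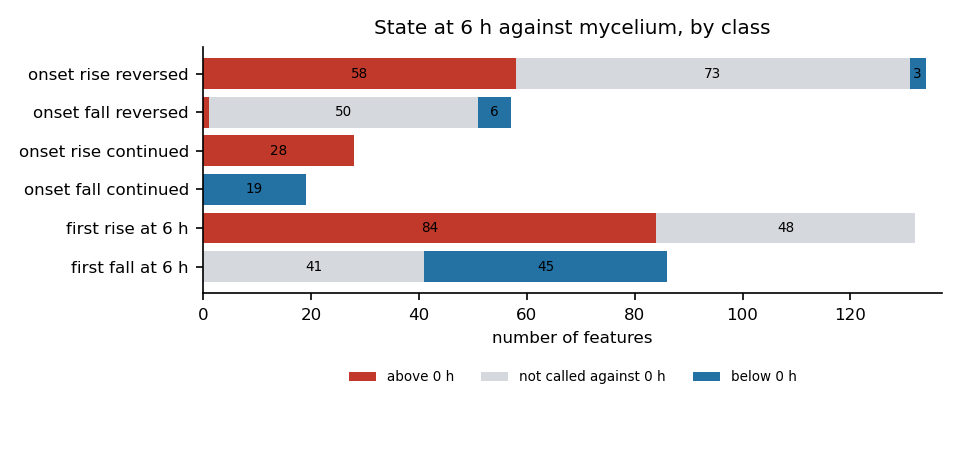
Number of features (horizontal axis) in each class that were called above 0 h, not called or called below 0 h at 6 h. Of the reversed rises 58 remained above mycelium, and of the reversed falls 50 of 57 were not called and 1 was above. Over all features, 8126 of 9126 were not called.

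A larger set had moved at the onset and was not called in the step, 818 features. At 6 h, 316 of them were above 0 h, 190 below and 312 no longer called, where 6.68% and 4.27% of all features were above and below. The selection by an onset call uses the same 0 h arrays, so these counts are a description. With a symbol there were 25. Of these, ooc1 and pap1 are given after their values were seen. The gene ooc1 was at 7.48 ± 0.28, 10.49 ± 0.16, 10.7 ± 0.31 and 12.71 ± 0.12 at 0, 3, 6 and 9 h with changes of 3.01, 0.22 and 2.0 in the 3 intervals (adjusted p = 0.453 for the step). The gene pap1 was at 11.93 ± 0.021, 6.7 ± 0.4, 6.38 ± 0.23 and 6.71 ± 0.23, with a step of -0.32 (adjusted p = 0.312).

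Position in the genome was not used in forming the classes. Neighbours were read from the order of genes on the scaffolds of the RefSeq table. Of the 134 reversed rises, 41 (30.6%) had an adjacent gene in the same class, where 2.87% of all genes in the table had a neighbour of that class. For first rises this was 25 of 131 (19.1%, against 2.78% of all genes), for first falls 6 of 86 (6.98%, against 1.81%) and for reversed falls 0 of 57 (1.24% of all genes). Continued rises had 2 of 28 (7.14%, against 0.616% of all genes) and continued falls 2 of 19 (10.5%, against 0.407%).

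The runs include named genes. The genes axe1, cip1 and cel61a lay side by side and all 3 were reversed rises, with steps of -4.37, -3.74 and -1.71. The gene cel3a lay beside TRIRE2_121127, which fell by 2.57, and cip2 beside TRIRE2_69276. The gene chi18-8 stood in a run of 5 falling genes, in which TRIRE2_108349 fell by 3.89, TRIRE2_108348 by 1.51, TRIRE2_108345 by 1.39 and TRIRE2_29993 by 1.02. A run of 4 reversed rises held TRIRE2_106164, TRIRE2_3405, TRIRE2_26163 and TRIRE2_59364, with steps of -3.39, -1.13, -2.2 and -2.95. Among rises the longest run was one of 4 first rises, TRIRE2_73618 at 1.14, TRIRE2_73621 at 1.34, TRIRE2_73623 at 2.42 and TRIRE2_43701 at 4.17. Levels of TRIRE2_73623 in that run were 6.07 ± 0.19, 5.84 ± 0.29, 8.26 ± 0.035 and 9.55 ± 0.00071 at 0, 3, 6 and 9 h. The features in these runs without a symbol, other than those given by the rule, were chosen after their values were seen, and none is named further here because the gene table gives no symbol.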

How the data were processed

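RNA of each culture, marked with Cy3, was read on NimbleGen gene arrays of 1 colour, per the labels' protocols. The authors deposited log2 values made with RMA (background correction, quantile normalization, probe summary), per the submitters' processing notes, and the log2 scale is named per the file headers. Its version and the array's genome build are not given in the sources used here. The deposited table holds a mean and an SD per time and 1 p-value per feature. A one-way analysis of variance from these with 2 replicas, Benjamini-Hochberg adjusted, gave the authors' p-value within 1% for 9015 of 9126 features (98.78%), so the SD is taken as that of 2 replicas. A second deposited log2 table held the same means (largest difference 0).

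The planned limma fit (limma 3.58.1, R 4.3.3) was rebuilt from means and SDs, with 4 times in 1 fit, 4 residual degrees of freedom, prior degrees of freedom 3.82 and prior variance 0.015, and was tested on simulated data. Features were called at adjusted p under 0.05 and at least 2-fold. Of 9122 TRIRE2 identifiers, 9094 were in the RefSeq table of the QM6a assembly and 235 had a symbol. Scaffolds were taken as runs of ascending gene starts in that table. Members and lists were chosen with earlier results of these data known. Named genes are all called features with a symbol, the called members and the 3 largest changes per direction of each list, lxr1, the hydrophobin genes and, per class, at most 2 features without a symbol (largest change, mean level above 9.63, the 25th percentile, replicas of 3 h and 6 h not overlapping). Not every gene the rule allows is printed, and 1 is not reported here. No sequences are shown.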

Additional observations from a re-analysis of the deposited data

Results flagged for a closer look

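A difference between times is flagged for 4 features, which were called against 0 h in opposite directions at 3 h and at 6 h. A called difference between 6 h and 3 h was part of this choice. Opposite calls of at least 2-fold each also imply a step of at least 4-fold, so the test of the step is no separate support. TRIRE2_108349 was 1.43 above 0 h at 3 h and -2.45 from it at 6 h, a step of -3.89. TRIRE2_108655 had 2.71 and -1.08, a step of -3.79, and TRIRE2_105279 had 1.19 and -1.24, a step of -2.43. TRIRE2_82105 went the other way, with -1.19 at 3 h and 1.7 at 6 h, a step of 2.89. The 6 h levels of TRIRE2_108349 and TRIRE2_105279, 4.92 and 5.32, lay within the range of the MAT1-1 features, so the sizes of their falls are not exact. No cause was tested.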

How the results depend on the processing

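Counts are given in the order rises, falls, reversed rises, reversed falls, continued rises, continued falls, first rises and first falls. Each change of the fold threshold applied to the onset call as well as to the step. Against 217, 239, 134, 57, 28, 19, 132 and 86, they were 23, 61, 41, 1, 1, 6, 21 and 14 at 4-fold, 610, 549, 294, 269, 91, 50, 250 and 205 at 1.5-fold, and 1117, 868, 499, 627, 158, 94, 332 and 275 by adjusted p alone. Without features whose mean level was under the 25th percentile they were 102, 117, 66, 37, 10, 8, 55 and 43. First moves were 70 rises and 48 falls where the onset adjusted p had to be missed. The authors' p-value covers any difference among the 4 times and is not a test of the step. With it in place of the step's adjusted p, a setting chosen after seeing the data, first falls were 53. First moves outnumbered reversals as reported, 218 against 191, and not at 4-fold (35 against 42), at 1.5-fold (455 against 563), by adjusted p alone (607 against 1126), over the 25th percentile (98 against 103), with the authors' p-value (163 against 177) or after quantile normalization (204 against 204). The order of the reversed classes depends on the fold threshold: reversed rises outnumber reversed falls at 2-fold and 4-fold and not by adjusted p alone. All 8 counts stayed within 1.5 times with a trended prior, after median centring and after quantile normalization. So they did, as alternatives chosen after seeing the data, for the features listed in the gene table and for those with a mean level above the MAT1-1 features. The counts of rises and falls also did so in the fit of 3 h and 6 h alone. Of 113 named features, 3 changed sides of the call (adjusted p and fold together) under 1 setting each. TRIRE2_108345 missed the adjusted p in the fit of 3 h and 6 h alone (-1.39, adjusted p = 0.0638, limma), TRIRE2_106181 ended at -0.89 after quantile normalization, and cel1a reached -1.02 with median centring. The cause was not tested. Leaving out a replica was not run, since single-array values were not used here. No paired analysis was possible because the columns carry no replicate numbers. Levels near the MAT1-1 features and near the top of the scale limit the sizes of changes.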
